A study of Rattus norvegicus with 24 samples.

Results

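Purine receptors and ectonucleotidases, 10 of the 26641 named loci in the deposited table, were examined: the ATP-gated channels P2rx4 and P2rx7, the nucleotide receptors P2ry6 and P2ry13, the adenosine receptors Adora1, Adora2a and Adora3, and the ectonucleotidases Entpd1, Entpd2 and Nt5e. A locus was taken where its gene name equalled that of a member, and where a name had several loci the locus with the highest mean over the 24 libraries was taken. All 10 members were found and all 10 passed the filter on low values, a mean of 10 or more, in every comparison. The messenger RNA libraries came from adult male Sprague-Dawley rats, 3 months after lateral fluid-percussion injury (TBI, 6 rats) or after a sham operation (6 rats). Sham-operated rats had the anaesthesia and the craniectomy without the impact. Each rat gave 1 library from the perilesional cortex and 1 from the ipsilateral thalamus, so there were 4 groups of 6. The TBI rats had been picked by magnetic resonance imaging for a marked signal around the lesion, and each library is bulk RNA of dissected tissue. The TBI groups therefore stand for that subset of injured rats and for all cells in the tissue together.

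Injured and overactive cells release ATP and other nucleotides, which act as danger signals. P2X channels open on binding ATP and P2Y receptors signal through G proteins, and microglia are rich in several of both. Ectonucleotidases on the cell surface strip the phosphates from ATP in steps, Entpd enzymes acting on ATP and ADP and Nt5e turning AMP into adenosine, which then acts on the Adora receptors.

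The depth of the libraries was 30568927 to 54608922 fragments. Values are normalized counts, which the authors scaled between libraries by size factors but did not divide by gene length, so levels are compared between groups and not between genes. Marker genes of tissue identity matched the labels: all 4 thalamus genes tested were higher and all 5 cortex genes lower in thalamus than in cortex, in sham-operated and in TBI rats. Choroid plexus markers stood apart in 6 libraries, with a summed normalized count of 264501 in TBI thalamus rat 45, 109618 in sham thalamus rat 50, 69487 in sham thalamus rat 34, 32552 in TBI cortex rat 45, 23932 in sham cortex rat 26 and 11388 in sham cortex rat 34. No other library was above 10000. Means are given ± SD (n = 6 rats), and log2 differences are on the log2(normalized count + 1) scale, on which changes of low genes come out too small.

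In the perilesional cortex of TBI rats, transcripts of Entpd2, P2ry6, P2rx7, P2ry13 and Nt5e were higher than in sham-operated rats and those of Adora1 were lower. In the ipsilateral thalamus P2ry13, P2ry6, P2rx7, Nt5e, Entpd2 and P2rx4 were higher and Adora2a was lower. Thus 6 of 10 members were called in the cortex and 7 of 10 in the thalamus at an adjusted p under 0.05 (limma with Benjamini-Hochberg adjustment over all tested loci). Among all loci tested, 29.2% were called in the cortex (14.3% higher, 14.9% lower) and 35.4% in the thalamus (14.5% higher, 20.9% lower). With TMM scaling the split of all called loci in the thalamus turned from 2259 higher and 3257 lower to 2796 higher and 2357 lower, and with upper quartile scaling to 2659 and 2421, while the members called with the main scaling kept their direction. The median log2 difference of the members was 0.38 in the cortex and 0.47 in the thalamus, against -0.01 and -0.02 over all tested loci. The TBI and sham values did not overlap for 2 of the 10 members in the cortex, where 12.5% of all loci had no overlap, and for 6 in the thalamus, where 18.2% had none. More cells of a type and more RNA per cell cannot be told apart in bulk tissue.

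**Figure D1:**
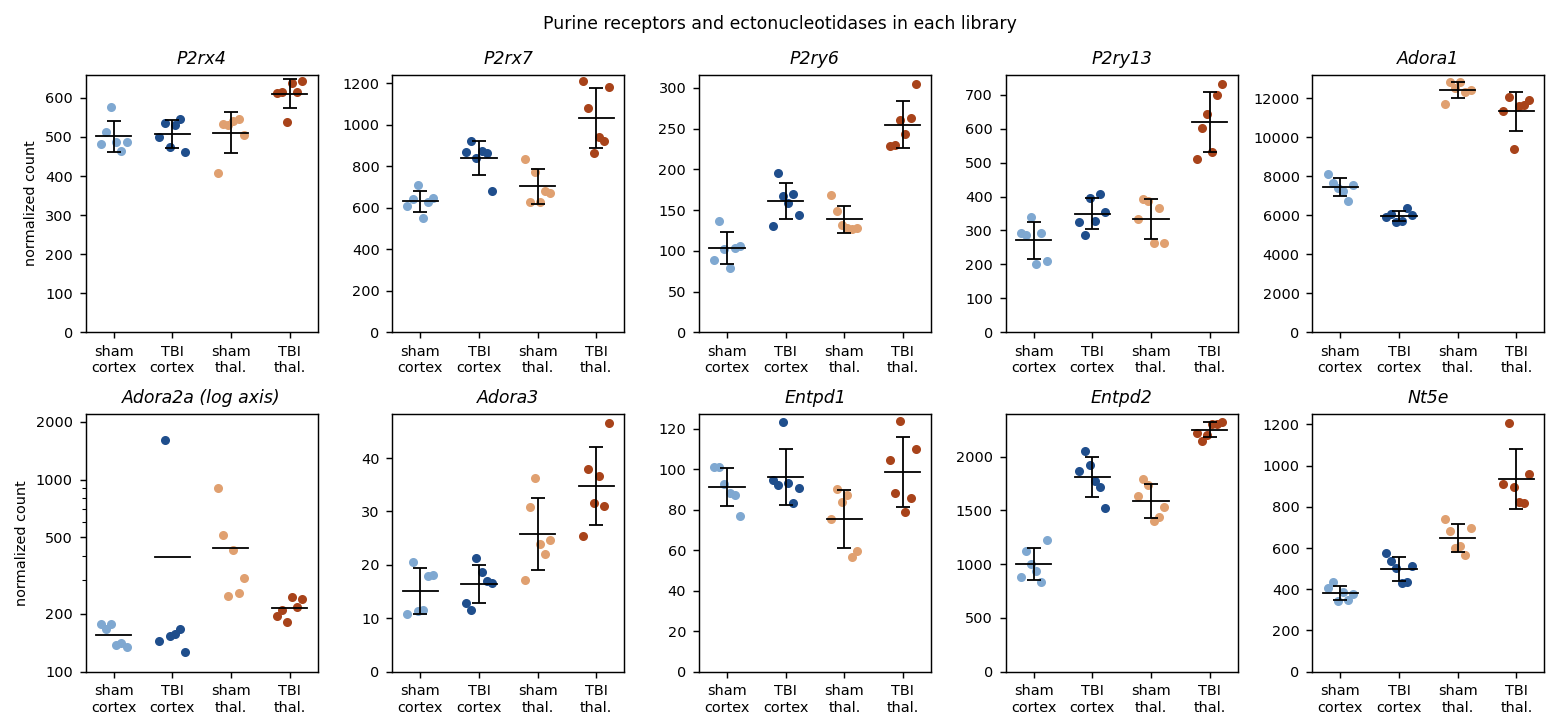
Normalized count of each of the 10 members in each of the 24 libraries (points, 6 per group), with the group mean (line) and the SD (bars, not drawn for Adora2a, whose vertical axis is logarithmic). Entpd2 in both regions and P2rx7, P2ry6, P2ry13 and Nt5e in the thalamus are higher in all 6 TBI libraries than in any sham library, and a single TBI cortex library stands at 1612 for Adora2a.

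**Figure D2:**
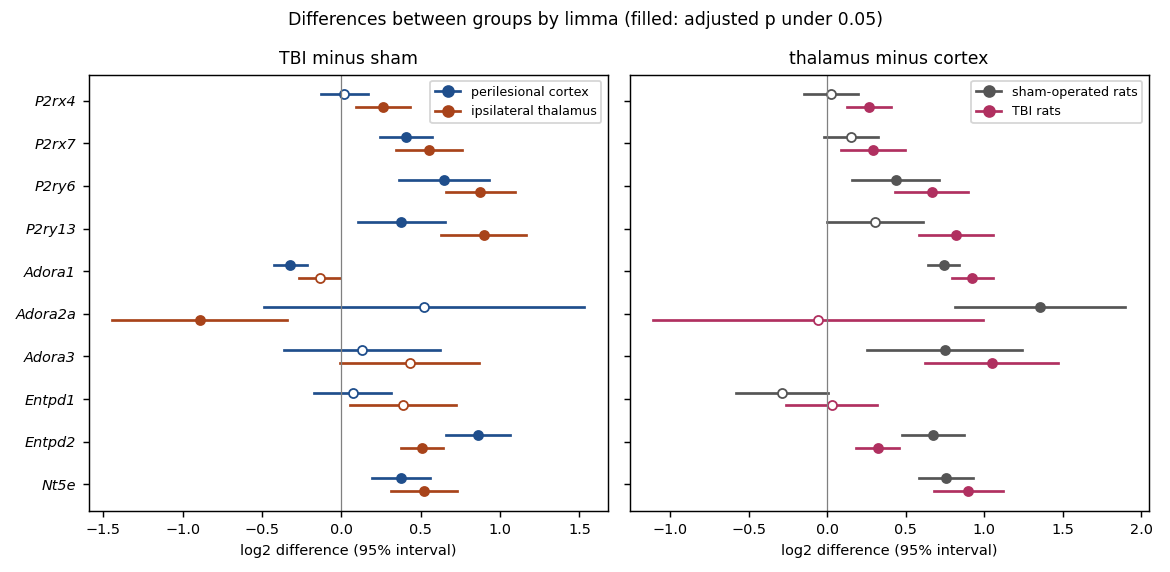
Log2 differences of the 10 members with 95% intervals, TBI minus sham in each region (left) and thalamus minus cortex in sham-operated and in TBI rats (right), on a horizontal axis in log2 units; filled points passed an adjusted p of 0.05. On the left 5 members lie to the right of 0 and are filled in both regions, while Adora1 and Adora2a are the filled points to the left of 0.

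P2rx7 encodes an ATP-gated channel known for driving inflammasome activation in microglia. It is listed at chromosome 12, 41241085 to 41284821, in the positions of the deposited annotation, for which the submitters name Rnor_5.0. The methods of the study name the earlier RGSC assembly for mapping, so the build behind the positions given here is not settled, nor is whether starts count from 0 or 1. Its normalized count ran from 553 to 709 (median 637) in sham cortex and from 681 to 921 (median 868) in TBI cortex. In the thalamus it ran from 626 to 834 (median 678) in sham-operated rats and from 865 to 1210.3 (median 1013) in TBI rats. In the cortex 5 of 6 TBI libraries exceeded all sham libraries, the exception being rat 63, and in the thalamus all 6 did. The level was 1.33-fold higher in TBI cortex (842 ± 83.1 against 632 ± 51.0, log2 difference 0.41, 95% interval 0.24 to 0.57, adjusted p = 0.00137 by limma). In TBI thalamus it was 1.47-fold higher (1034 ± 144 against 704 ± 83.5, log2 difference 0.55, 95% interval 0.34 to 0.76, adjusted p = 0.000628 by limma).

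P2rx4 encodes another ATP-gated channel, known in microglia for its part in pain after nerve injury. Its locus, chromosome 12, 41196237 to 41214588, lies beside P2rx7. Normalized counts were 464 to 577 (median 486) in sham cortex, 461 to 547 (median 515) in TBI cortex, 408 to 546 (median 532) in sham thalamus and 540 to 644 (median 615) in TBI thalamus. The cortex groups overlapped, and in the thalamus 5 of 6 TBI libraries exceeded every sham library. The log2 difference was 0.02 in the cortex (95% interval -0.13 to 0.17, adjusted p = 0.865 by limma) and 0.26 in the thalamus (95% interval 0.09 to 0.43, adjusted p = 0.0179 by limma), a 1.20-fold rise.

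A second locus in the table carries the name P2rx4 and the same listed span, and it moved the other way. Its normalized counts were 318 to 479 (median 433) in sham cortex and 176 to 343 (median 292) in TBI cortex, and 315 to 633 (median 504) in sham thalamus and 216 to 320 (median 247) in TBI thalamus. Of the 6 TBI libraries, 4 in the cortex and 5 in the thalamus lay below all sham libraries. It fell by 0.57 on the log2 scale in the cortex (adjusted p = 0.0132 by limma) and by 0.90 in the thalamus (adjusted p = 0.000598 by limma). The fall in the cortex did not pass the threshold without the libraries with choroid plexus sums over 10000 (log2 difference -0.35, adjusted p = 0.109 by limma). With both loci summed, P2rx4 had a log2 difference of -0.21 in the cortex (adjusted p = 0.0603 by limma) and -0.20 in the thalamus (adjusted p = 0.148 by limma). The sign of the value under the name P2rx4 thus depends on whether the second locus is counted.

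Locus numbers run along chromosome 12 from end to end and then once more. Of the named loci of the first run that have a strand in the RefSeq promoter table (GRCr8), 191 of 212 are on the plus strand, and of the second run 198 of 218 are on the minus strand. The member locus and P2rx7 are in the second run and RefSeq places both genes on the minus strand, while the second P2rx4 locus is in the first run. By this order the second locus would lie on the strand opposite to P2rx4, though the annotation gives no strand. The values with both loci summed may therefore not measure P2rx4 alone. The named locus before it in that run, Camkk2, ends 2209 bases before it in the listed positions and had a log2 difference of -0.39 in the cortex (adjusted p = 2.71e-05 by limma) and -0.45 in the thalamus (adjusted p = 0.000204 by limma). The part of Camkk2 in the values of the second locus was not tested.

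**Figure D3:**
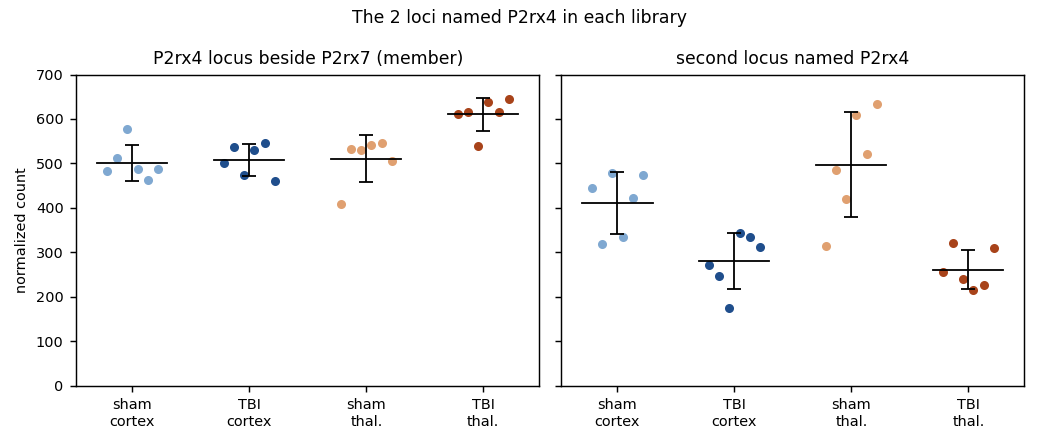
Normalized count at the 2 loci named P2rx4 in each library (points, 6 per group; line, mean; bars, SD). The locus used for P2rx4 (left) has its highest mean in TBI thalamus, 611, while the second locus (right) has its lowest mean there, 261.

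P2ry6 is the receptor for UDP and is known for prompting microglia to engulf debris. Its locus is listed at chromosome 1, 172169438 to 172194750. It ranged from 79.0 to 137 (median 103) in sham cortex, from 131 to 195 (median 163) in TBI cortex, from 127 to 168 (median 130) in sham thalamus and from 228 to 305 (median 252) in TBI thalamus. The lowest TBI cortex library lay below the highest sham cortex library, and the thalamus groups were apart. The rise was 1.56-fold in the cortex (161 ± 22.4 against 103 ± 19.7, log2 difference 0.65, 95% interval 0.36 to 0.93, adjusted p = 0.00236 by limma). It was 1.83-fold in the thalamus (255 ± 28.6 against 139 ± 16.5, log2 difference 0.88, 95% interval 0.66 to 1.09, adjusted p = 2.19e-05 by limma).

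P2ry13, an ADP receptor of microglia, is listed within a span on chromosome 2, 168632571 to 168996281, that the annotation also gives for P2ry12 and other genes, among them Igsf10 and Med12l. Its normalized counts were 202 to 340 (median 290) in sham cortex, 286 to 407 (median 341) in TBI cortex, 262 to 393 (median 349) in sham thalamus and 509 to 733 (median 622) in TBI thalamus. The cortex groups overlapped in part, with 3 of 6 TBI libraries above all sham libraries, and the thalamus groups did not overlap. In the thalamus P2ry13 was 1.86-fold higher in TBI rats (619 ± 89.3 against 334 ± 59.0, log2 difference 0.90, 95% interval 0.63 to 1.17, adjusted p = 0.000106 by limma). In the cortex it was 1.30-fold higher (349 ± 45.8 against 271 ± 53.9, log2 difference 0.38, 95% interval 0.10 to 0.66, adjusted p = 0.0392 by limma). That call was lost in 7 of the 12 fits that left out 1 library, where the log2 difference ran from 0.30 to 0.45 and the adjusted p from 0.0198 to 0.0915: without sham rats 38 or 55, or without TBI rats 22, 45, 52, 56 or 63.

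Microglial markers were mostly higher in TBI rats in both regions, as were P2rx7, P2ry6 and P2ry13. The member locus of P2rx4 was higher in the thalamus alone, and its second locus was lower in both regions. Of the 14 microglia markers with a locus, 13 were higher in TBI cortex, the lowest being Itgam and the highest Tyrobp, and 14 were higher in TBI thalamus, with C1qc lowest and Ptprc highest. Their median log2 difference was 0.67 in the cortex and 1.00 in the thalamus. The summed normalized count of the list was 24762 to 27189.7 in sham cortex, 34721 to 40522 in TBI cortex, 26807 to 35702 in sham thalamus and 55369 to 68258 in TBI thalamus, and no marker was at 0 in any group. The part of these markers in the receptor differences was not tested.

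Adora1 encodes the inhibitory adenosine receptor of neurons and synapses and is listed at chromosome 13, 56089935 to 56132137, a span also given for Mybph. Whether fragments were shared out between genes of such joint spans cannot be read from the table. It ranged from 6706 to 8096 (median 7472) in sham cortex and from 5652 to 6363 (median 5949.8) in TBI cortex, with no overlap. In the thalamus the range was 11675 to 12835 (median 12457) in sham-operated rats and 9369 to 12071 (median 11622) in TBI rats, and 4 of 6 TBI libraries lay below all sham libraries. Adora1 fell by 0.32 on the log2 scale in the cortex, that is 1.25-fold (5952 ± 260 against 7441 ± 461, 95% interval -0.42 to -0.22, adjusted p = 0.000275 by limma). In the thalamus the log2 difference was -0.14 (95% interval -0.26 to -0.01, adjusted p = 0.0858 by limma).

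Neuronal markers were also lower. Of the 12 tested, 10 were lower in TBI cortex (median log2 difference -0.30) and 10 in TBI thalamus (median -0.56), none was higher, and their summed normalized count was 418364 to 451779.9 in sham cortex and 294896 to 390086 in TBI cortex. In the thalamus the sum was 267506 to 324281 in sham-operated rats and 181961 to 227753 in TBI rats. Their part in the Adora1 difference was not tested.

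Adora2a, the adenosine receptor best known from striatal projection neurons, is listed at chromosome 20, 16449375 to 16466147. Its normalized count was 134 to 177 (median 154) in sham cortex and 126 to 167 in 5 of the TBI cortex libraries, but 1612 in that of rat 24. Sham thalamus ran from 248 to 903 (median 369) and TBI thalamus from 182 to 244 (median 213), without overlap. The highest sham thalamus values were 903 in rat 26, 513 in rat 32 and 431 in rat 38. In the thalamus Adora2a fell by 0.89 on the log2 scale, or 1.86-fold (214 ± 24.2 against 443 ± 248, 95% interval -1.44 to -0.34, adjusted p = 0.0145 by limma). Without sham rat 26 the log2 difference was -0.66 (adjusted p = 0.0123 by limma), and with all 24 libraries in 1 fit the call was lost (adjusted p = 0.0968 by limma). In the cortex the log2 difference was 0.52 (95% interval -0.49 to 1.53, adjusted p = 0.439 by limma) and became -0.05 without TBI rat 24 (adjusted p = 0.770 by limma).

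Markers of striatal projection neurons stood high in the same libraries. Rgs9 was at 1031 in TBI cortex rat 24 against 96.5 to 196 in the other TBI cortex libraries, and at 872 in sham thalamus rat 26 against 178 to 437 in the other sham thalamus libraries. Drd2, listed as DRD2, was at 887 and 786 in these 2 libraries. Drd1 was at 876 in TBI cortex rat 24 and at 1141 in sham thalamus rat 26. All 10 markers of the list with a locus had values above 0, and the summed count was 32158 in TBI cortex rat 24 against 15709.5 to 18364 in the other 5, 9143 to 20274 in sham thalamus and 8693 to 10739.7 in TBI thalamus. In the thalamus 5 of the 10 markers were lower in TBI rats, none was higher (8 were called without the libraries with choroid plexus sums over 10000), and the list's median log2 difference was -0.73, from -1.66 at Drd1 to 0.39 at Tac1. In the cortex 0 of the 10 were called, with 1 at an unadjusted p under 0.05 by limma, and edgeR's quasi-likelihood test called 1 and limma-voom 0. By limma 2 were called without TBI rat 24 and 1 without TBI rat 52. The list's median in the cortex was 0.14, from -0.17 at Pde10a to 0.60 at Rgs9. The part of these markers in the Adora2a differences was not tested.

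**Figure D4:**
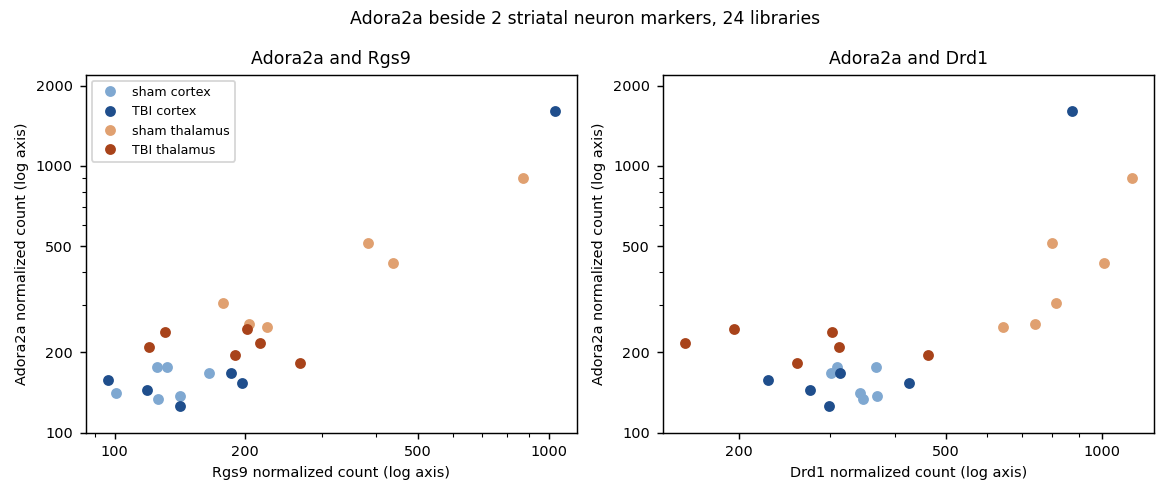
Normalized count of Adora2a against that of Rgs9 (left) and Drd1 (right), both genes of striatal projection neurons, 1 point per library in the 4 groups, on logarithmic axes. TBI cortex rat 24 (Adora2a 1612, Rgs9 1031, Drd1 876) and sham thalamus rat 26 (Adora2a 903, Rgs9 872, Drd1 1141) lie at the upper right.

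Adora3, an adenosine receptor of mast cells and microglia, had few reads. Its locus shares a listed span on chromosome 2, 227743782 to 228008822, with Wdr77, Atp5f1 and other loci. The values were 10.8 to 20.6 (median 14.7) in sham cortex, 11.6 to 21.2 (median 16.9) in TBI cortex, 17.2 to 36.3 (median 24.3) in sham thalamus and 25.4 to 46.5 (median 34.1) in TBI thalamus, and both pairs of groups overlapped. The log2 difference was 0.13 in the cortex (95% interval -0.36 to 0.62, adjusted p = 0.703 by limma) and 0.43 in the thalamus (95% interval -0.01 to 0.87, adjusted p = 0.120 by limma). At this depth neither could be told from 0. A locus named ADORA3 in capitals is listed at 0 in every library.

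Short RefSeq promoter windows were read for the ectonucleotidases and receptors to show the letters of GAGGAAG, the core of sites bound by the myeloid factor PU.1, and of CACGTG, an E box. Promoters from 250 bases before to 50 bases after the gene start (RefSeq, GRCr8) were held for 8 of the 10 members, P2ry6 and Adora2a being the others. GAGGAAG, on either strand, was found in 3 of the 8 and in 12.4% of all 33469 promoters of that length, and CACGTG in 0 of the 8 and in 6.42% of all promoters. The 3 matches are shown 5′ to 3′ along the gene, 30 bases each, with the match in capitals.
Entpd2: agaacctgcgcGAGGAAGggtggtgcggct
Adora3: ctggccctgtaCTTCCTCttggactatctc
Entpd1: gacaaacgagggaaGAGGAAGaaaacaaaa
The Entpd2 window is chr3:28611588-28611617 (plus strand), that of Adora3, with the reverse complement of the motif, chr2:196076938-196076967 (plus strand), and that of Entpd1 chr1:249422884-249422913 (plus strand), all in GRCr8. The matches begin 217 bases before the start of Entpd2, 93 bases before that of Adora3 and at base 35 from the start of Entpd1. Of these 3 genes, Entpd2 passed the test between TBI and sham-operated rats, and Adora3 and Entpd1 did not in either region.

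Entpd2 encodes an ectonucleotidase that prefers ATP to ADP and is known from astrocytes. It is listed at chromosome 3, 2599264 to 2606302. Its normalized counts were 833 to 1227 (median 968) in sham cortex and 1518 to 2053 (median 1819) in TBI cortex. In the thalamus they were 1398 to 1792 (median 1582) in sham-operated rats and 2145 to 2323 (median 2259.7) in TBI rats. Every TBI library exceeded every sham library in each region. The rise was 1.81-fold in the cortex (1808 ± 185 against 1001 ± 150, log2 difference 0.86, 95% interval 0.66 to 1.06, adjusted p = 2.33e-05 by limma). It was 1.42-fold in the thalamus (2249 ± 69.9 against 1589 ± 159, log2 difference 0.51, 95% interval 0.37 to 0.64, adjusted p = 3.31e-05 by limma).

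Astrocyte markers rose in part. Of the 9, 5 were higher and 1 lower in TBI cortex and 5 were higher in TBI thalamus, Gfap being highest in both, with Slc1a2 lowest, and the list's median log2 difference was 0.28 and 0.42. The summed normalized count was 325447 to 351742 in sham cortex, 366154 to 414119 in TBI cortex, 231108 to 255835 in sham thalamus and 355100.4 to 416742 in TBI thalamus. Their part in the Entpd2 difference was not tested.

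Entpd1, also called CD39, takes ATP and ADP to AMP and is known from microglia and vessels. The locus is listed at chromosome 1, 267231612 to 267259591. It ranged from 77.1 to 101 (median 90.4) in sham cortex, from 83.4 to 123 (median 92.8) in TBI cortex, from 56.7 to 90.2 (median 79.6) in sham thalamus and from 78.9 to 124 (median 96.3) in TBI thalamus. Both pairs of groups overlapped, with log2 differences of 0.07 in the cortex (95% interval -0.17 to 0.31, adjusted p = 0.672 by limma) and 0.39 in the thalamus (95% interval 0.05 to 0.72, adjusted p = 0.0687 by limma).

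Nt5e, or CD73, makes adenosine from AMP and is listed at chromosome 8, 95464067 to 95509162. It ranged from 343 to 434 (median 383) in sham cortex, from 432 to 576 (median 509) in TBI cortex, from 564 to 741 (median 645) in sham thalamus and from 817 to 1208 (median 903) in TBI thalamus. In the cortex 5 of 6 TBI libraries exceeded every sham library, and in the thalamus all 6 did. The rise was 1.30-fold in the cortex (500 ± 57.4 against 383 ± 34.3, log2 difference 0.38, 95% interval 0.19 to 0.56, adjusted p = 0.00454 by limma) and 1.44-fold in the thalamus (936 ± 144 against 648 ± 67.8, log2 difference 0.52, 95% interval 0.32 to 0.73, adjusted p = 0.000860 by limma). It was higher in thalamus than in cortex both in sham-operated and in TBI rats.

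Levels were also compared between regions. In sham-operated rats 6 of 10 members were higher in thalamus, P2ry6, Adora1, Adora2a, Adora3, Entpd2 and Nt5e, and none was lower, where 62.2% of all tested loci differed, 33.9% higher and 28.3% lower, so the share of members called was near that of all loci. Adora2a had the largest log2 difference, 1.36 (95% interval 0.82 to 1.90, adjusted p = 0.000228 by limma), with the striatal markers above standing high in the same sham thalamus libraries, and 1.12 without rat 26. Adora3 (log2 difference 0.75, adjusted p = 0.0110 by limma) and P2ry6 (log2 difference 0.44, adjusted p = 0.00823 by limma) were not called without the libraries with choroid plexus sums over 10000. Their log2 differences were then 0.48 and 0.44 (adjusted p = 0.170 and 0.0555 by limma). That fit held fewer libraries and called 8068 of all tested loci, against 9693. P2ry13 was not called (log2 difference 0.30, adjusted p = 0.0805 by limma) but was with the rat as a block (adjusted p = 0.00336 by limma).

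In TBI rats 8 of 10 members were higher in thalamus and none was lower, where 57.5% of all tested loci differed, 31.0% higher and 26.5% lower. Adora3 (log2 difference 1.05), Adora1 (0.92), Nt5e (0.90) and P2ry13 (0.82) had the largest log2 differences, with adjusted p between 7.12e-09 and 0.000394 by limma. Adora2a and Entpd1 were not called, with log2 differences of -0.06 and 0.03. With its loci summed P2rx4 was not called (log2 difference 0.15, adjusted p = 0.119 by limma). Without TBI cortex rat 24, Adora2a was higher in thalamus (log2 difference 0.51, adjusted p = 0.00103 by limma). Ordered by mean, Nt5e, P2rx4 and Adora3 ran from sham cortex through TBI cortex and sham thalamus to TBI thalamus, and TBI thalamus was the only group of Nt5e whose range did not overlap that of its neighbour in the order. P2rx7, P2ry6, P2ry13 and Entpd2 ran from sham cortex through sham thalamus and TBI cortex to TBI thalamus, with overlap between sham thalamus and TBI cortex in all 4. In P2ry6, P2ry13 and Entpd2 the TBI thalamus values stood above all others.

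The remaining members had other orders. Adora1 was lowest in TBI cortex, then sham cortex, TBI thalamus and sham thalamus, and its last neighbours overlapped. Entpd1 ran from sham thalamus through sham cortex and TBI cortex to TBI thalamus with overlap at each step. For Adora2a sham cortex was lowest by mean and sham thalamus highest, and the place of TBI cortex (393 ± 597) rested on rat 24, since its other 5 libraries lay within or below the sham cortex range.

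Whether the TBI difference was larger in one region than in the other was asked with an interaction term in 1 fit of the 24 libraries. By limma 0 of 10 members were called, 5 had an unadjusted p under 0.05, and 7.26% of all 15678 loci were called. P2ry13 had a larger rise in the thalamus by 0.52 on the log2 scale (95% interval 0.13 to 0.91, adjusted p = 0.0977 by limma), which passed with the rat as a block (adjusted p = 0.00614 by limma). Entpd2 differed the other way, by -0.35 (95% interval -0.59 to -0.11, adjusted p = 0.0679 by limma). The other 3 with an unadjusted p under 0.05 were P2rx4 (0.24), Adora1 (0.18) and Adora2a (-1.41). With its loci summed P2rx4 was at 0.02. Adora2a was at -0.84 without TBI cortex rat 24 and at -0.60 without that library and sham thalamus rat 26. By edgeR's quasi-likelihood test on recovered fragments 1 member was called, Adora2a (adjusted p = 0.0414).

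The rest of the purinergic system was counted from a list of 45 genes, of which 34 besides the members had a locus and 31 were tested in each region. In the cortex 10 were higher and 2 lower in TBI rats, where 14.3% of all tested loci were higher and 14.9% lower. Their median log2 difference was 0.19, against -0.01 over all tested loci. In the thalamus 7 were higher and 6 lower, where 14.5% of all tested loci were higher and 20.9% lower. The median was 0.05, against -0.02. Without the libraries with choroid plexus sums over 10000 the counts were 8 higher and 2 lower in the cortex and 5 higher and 4 lower in the thalamus. These fits held fewer libraries and called 2162 of all tested loci in the cortex, against 4531, and 4241 in the thalamus, against 5516.

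P2ry12, the ADP receptor that guides microglial processes, rose from 707 ± 76.7 to 899 ± 137 in the cortex (log2 difference 0.34, adjusted p = 0.0225 by limma). Without the libraries with choroid plexus sums over 10000 the log2 difference there was 0.39 (adjusted p = 0.0632 by limma). In the thalamus P2ry12 rose from 778 ± 89.8 to 1675 ± 311 (log2 difference 1.09, adjusted p = 8.49e-06 by limma). In the cortex the largest rises were those of Enpp3, an ectonucleotide pyrophosphatase (log2 difference 1.12, 123 ± 33.5 against 56.4 ± 16.9), and of the ATP-gated channel P2rx1 (1.01, 54.6 ± 29.1 against 25.2 ± 7.42). Of the genes past the threshold there, the 2 that fell were Entpd3 (-0.39) and Entpd4 (-0.19), both nucleotidases, while the lowest value of the list was that of P2rx5 (-0.47), which was not called (adjusted p = 0.0800 by limma). In the thalamus the largest rises were at P2rx1 (1.25, 54.7 ± 13.1 against 22.1 ± 3.71) and P2ry12, and the largest falls at the channel gene Panx2 (-0.76) and at Entpd3 (-0.76, 438 ± 55.5 against 736 ± 30.0). P2rx1, Enpp3 and Entpd4 in the cortex, and P2rx1, P2ry12, Panx2 and Entpd3 in the thalamus, had no overlap between TBI and sham values. Of all tested loci 12.5% had none in the cortex and 18.2% in the thalamus. These genes, P2ry12 apart, were named for the size of their differences. Their lack of overlap thus follows in part from that choice and cannot be weighed against these shares. For P2rx1 in the cortex the lowest TBI value was 38.1 and the highest sham value 37.7. Its highest TBI cortex value was 113 in rat 45, against a next value of 53.3. Without the libraries with choroid plexus sums over 10000 the P2rx1 log2 difference in the cortex was 0.71 (adjusted p = 0.0464 by limma).

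Among these other genes 4 of 31 differed in the TBI effect between regions, where 7.26% of all tested loci did. P2ry12 had the larger rise in the thalamus (interaction 0.75, adjusted p = 0.00557 by limma), while P2rx6 (-1.16, adjusted p = 5.19e-05), Panx2 (-0.64, adjusted p = 0.0166) and the nucleoside transporter Slc29a1 (-0.49, adjusted p = 0.00113) went the other way. They were named because the count was small. Without the libraries with choroid plexus sums over 10000 the count was 2, P2rx6 and Slc29a1. P2ry12 (interaction 0.71, adjusted p = 0.0583 by limma) and Panx2 (-0.63, adjusted p = 0.0704 by limma) were then not called. That fit held fewer libraries and called 422 of all tested loci, against 1138. P2rx6, a P2X subunit, rose from 164 ± 19.9 to 233 ± 36.0 in the cortex and fell from 844 ± 89.1 to 539 ± 76.2 in the thalamus.

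Genes with the most similar pattern to each member were sought by the root mean square difference of centred log2 values over the 24 libraries, among 15123 loci tested in both regions. P2ry6 was closest to C1qa (0.170) and Csf1r (0.171), and P2ry13 to P2ry12 (0.172), which has the same listed span, and Bin2 (0.173). Adora1 was closest to Mybph (0.0783), with which it shares a listed span, and Gap43 (0.101), and Adora2a to Rgs9 (0.367) and the locus named DRD2 (0.450). P2rx7 was closest to Abcb4 (0.134) and Cntrl (0.146), P2rx4 to Elf2 (0.114) and Fubp3 (0.116), Entpd2 to Homer3 (0.154) and Rin3 (0.162), and Nt5e to Ampd3 (0.156) and Syde2 (0.157). Entpd1 had Itgb1 (0.168), and Adora3 had Piga (0.288) and TMEM144 (0.296). The median over all loci was 0.307 for P2rx4, the member that varied least, and 0.915 for Adora2a, which varied most. The root mean square of a member's own centred values was 0.160 for P2rx4, 0.255 for Entpd1 and 0.507 for P2ry6. A small distance of a member that varied little is thus no closer likeness than a larger one of a member that varied more.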

How the data were processed

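Tables were deposited for 24 libraries, and samples were grouped by their labels. Per the labels and the methods, the authors prepared strand-specific libraries of polyadenylated RNA, mapped reads with TopHat2 2.0.11 and Bowtie2 2.2.2 and assembled transcripts with Cufflinks 2.2.1. The deposited signal values are normalized fragment counts. At least 99.97% of values were whole multiples of 1 fragment within 0.1, which gave the depth and allowed a count test. The 37.1% of 42334 loci that lack a gene name were left out. limma 3.58.1 in R 4.3.3 (mean trend) was run on log2(value + 1) for named loci with a mean of at least 10, and intervals are 95%. Each p for TBI against sham within a region measures the spread between rats. The main fits between regions and of the interaction held no term for the rat, so they treated the 2 libraries of a rat as independent. The labels number the rats, and each rat gave both regions (a rat's deviations correlated with a median of 0.187, 10 of 12 over 0.1), so the rat as a block was an alternative. Others were TMM and upper quartile scaling, other filters and pseudocounts, limma-voom, edgeR 4.0.16, summed loci, 1 fit of all libraries and leaving out each library. The steps were tested on simulated data. List genes without an exact name match were matched regardless of capitals. P2rx5 was named after its values were seen. Members and lists were chosen with earlier results of these data known. Named genes are all members, P2ry12, the 2 largest rises and 2 largest falls past the threshold per region in the purinergic list, and the 2 loci most like each member. Python 3.11.15, pandas 2.3.3, scipy 1.17.1 and matplotlib 3.10.9 were used. Some genes that these rules would name are not reported here.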

Additional observations from a re-analysis of the deposited data

Results flagged for a closer look

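Among 44 sets of 6 values (10 members and the second P2rx4 locus in 4 groups), 7 had a lowest or highest value set apart from the rest, where chance gives about 1 in 20. Adora2a in TBI cortex rat 24 was at 1612, against a next value of 167. Rat 45 had 3 of the 7, P2rx4 in TBI thalamus (540, next value 612), Adora1 in TBI thalamus (9369, next value 11345) and Entpd1 in TBI cortex (123, next value 94.5), and its libraries in both regions carried the highest choroid plexus sums of their groups. The others were P2rx4 in sham thalamus rat 26 (408), P2rx7 in TBI cortex rat 63 (681) and Nt5e in TBI thalamus rat 24 (1208).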

How the results depend on the processing

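The count of members called was 5 or 6 in the cortex, 6 to 8 in the thalamus, 4 to 7 between regions in sham-operated rats and 7 to 9 in TBI rats over all alternatives. The interaction count, 0, became 1 with edgeR (Adora2a) and 1 with the rat as a replicate block (P2ry13), and ran from 0 to 1 when 1 library was left out: Entpd2 was called without sham cortex rat 32 or 55, TBI cortex rat 63 or sham thalamus rat 38, and Adora1 without TBI thalamus rat 45. The block changed 1 other member call, P2ry13 between regions in sham-operated rats. Of the other purinergic genes, 2 differed in the TBI effect between regions without the libraries with choroid plexus sums over 10000, against 4. The interaction count over all loci went from 1138 to 422 with that alternative. That alternative, the values without both libraries of rat 24 and those without TBI cortex rat 24 and sham thalamus rat 26 were chosen after seeing the data, as was the second P2rx4 locus.

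Directions turned as follows, and the cause was not tested. With its loci summed P2rx4 was -0.21 in the cortex and -0.20 in the thalamus, and with TMM scaling -0.0065 between regions in sham-operated rats. Adora3 in the cortex was -0.13 without the choroid plexus libraries. Adora2a between regions in TBI rats was 0.52 without both libraries of rat 24. When 1 library was left out, log2 differences ran from -0.0034 to 0.060 for P2rx4, from -0.051 to 0.68 for Adora2a and from -0.0018 to 0.11 for Entpd1 in the cortex, and between regions in TBI rats from -0.22 to 0.51 for Adora2a and from -0.041 to 0.10 for Entpd1. P2ry13 in the cortex missed the threshold with no filter on low values (adjusted p = 0.0545 by limma), and Adora2a in the thalamus with all 24 libraries in 1 fit (adjusted p = 0.0968 by limma). Entpd1 in the thalamus passed with TMM scaling (adjusted p = 0.0466 by limma) and with all libraries in 1 fit (adjusted p = 0.0254 by limma), and Adora1 there in that fit (adjusted p = 0.0445 by limma). Adora3, with the fewest reads, was not tested at a mean of at least 50.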
